A study of Mus musculus with 4 samples.

Results

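The cartilage precursor genes examined here are 10 genes picked by name: *Sox9*, *Sox5*, *Sox6* and *Nkx3-2*, which encode transcription factors of cartilage precursors, *Runx1*, *Runx2* and *Runx3*, which encode the RUNX factors, and *Hapln1*, *Acan* and *Matn4*, which encode proteins of the cartilage matrix. All 10 were found among the 46983 genes that each deposited table lists. RNA was sequenced from mouse larynx tissue at stage E10.5 (32 to 35 somites, vocal fold tissue per the methods), in 2 *Shh*-/- pools and 2 wild-type (WT) pools of 3 larynxes each, and every comparison below is between these 2 genotypes. The mutants carried the Shhtm1amc null allele, which was kept on a Swiss Webster background, and the WT embryos were Swiss Webster. The sample labels write the mutant genotype as heterozygous (Shh+/-), whereas the series description and the paper's methods call the same pools *Shh*-/-, and the latter name is used here. *Shh* is lost in the whole embryo in this model, and a pool holds epithelium, mesenchyme, nerves, vessels and blood together. In such bulk RNA, fewer cells of a type and less RNA per cell cannot be told apart.

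Cartilage of the larynx forms from mesenchymal precursors that condense before they lay down matrix. SOX9 is the factor that commits cells to the cartilage lineage, and SOX5 and SOX6 act with it to switch on matrix genes such as those for type II collagen and aggrecan. Aggrecan, the product of *Acan*, is held on hyaluronan chains by the link protein HAPLN1. HH signals from the epithelium are known to act on the neighboring mesenchyme.

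The aligned bases of each library in gigabases (Gb), taken from the ratio of coverage to FPKM, came to 1.37 Gb and 3.13 Gb in the *Shh*-/- pools and to 2.85 Gb and 2.97 Gb in WT, so the first mutant pool had the least sequence behind its values. Values are in TPM, a length-corrected transcript abundance that has the same sum in each library. Fold changes are *Shh*-/- minus WT on the scale log2(TPM + 1), on which low genes show less than their true ratio. Testing used limma over the 16972 genes averaging 1 TPM or more, and calls needed a Benjamini-Hochberg adjusted p under 0.05. The HH target genes separated the libraries as labeled, since *Ptch1*, which encodes the HH receptor, fell by 1.997 on the log2 scale (adjusted p = 0.0319) and *Hhip*, which encodes an HH-binding inhibitor, fell by 3.36 (adjusted p = 0.0323). Both calls were lost when any 1 pool was left out, with adjusted p between 0.0699 and 0.132. *Shh* transcripts were still counted in the mutant pools, at 10.4 and 10.8 TPM against 23.7 and 42.1 TPM in WT. All 6 epithelial and all 6 foregut and pharyngeal mesenchymal markers were above 1 TPM in every pool, but they did not move together. Over all tested genes, both mutant pools were higher in 38.0% and lower in 22.7%. Of the epithelial markers, 3 were higher in both mutant pools and 3 lower, *Foxa2* among the latter (log2 difference −2.13, adjusted p = 0.0602). Of the mesenchymal markers, 4 were higher and 2 lower. *Twist1*, among the higher, rose by 1.57 (adjusted p = 0.0323, and 0.146 with no filter on TPM). Its value lay between 1.25 and 1.69 over 13 alternatives. The 2 lower markers were *Tbx5* (log2 difference −2.23, adjusted p = 0.106) and *Osr1* (−1.58, adjusted p = 0.0966).

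Of the 10 cartilage genes, 6 had a mean TPM of at least 1 and were tested, and none passed the threshold in either direction. Over all tested genes, 0.56% passed as higher and 0.165% as lower in *Shh*-/-. The paper, which names no test, reported more genes at an adjusted p under 0.05 from these pools. Its gene list was not compared here. None of the 6 had an unadjusted p under 0.05 in limma, a level that 24.8% of all tested genes reached. Their median log2 fold change was 0.04, beside 0.08 over all tested genes. The count above 0 was 4 of 6, and it was 1 of 6 after median centring and 2 of 6 without the second WT pool. Added together, the 10 genes took 68.2 and 69.6 TPM in the mutants against 70.3 and 64.8 TPM in WT. In WT the levels ran from *Sox9* through *Hapln1*, *Sox5*, *Sox6*, *Nkx3-2*, *Matn4*, *Runx2*, *Runx1* and *Runx3* down to *Acan*, and no neighbors in this order had overlapping pools. In *Shh*-/- larynx the first 5 genes kept these places, with *Sox5* and *Sox6* overlapping, and *Runx3* stood sixth at a level that overlapped *Matn4*.

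**Figure D1:**
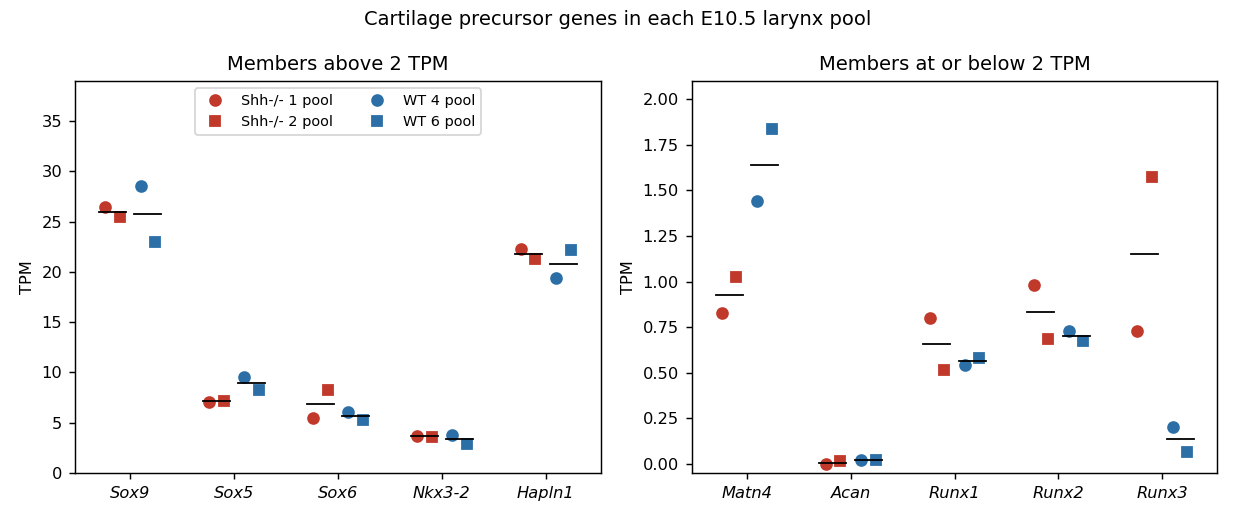
TPM of the 10 cartilage precursor genes (x axis) in each pool, with *Shh*-/- pools in red, WT pools in blue and black lines at the mean of 2 pools, on linear axes with different ranges for the higher and the lower genes. *Sox9* and *Hapln1* overlap between the genotypes, both *Shh*-/- pools lie below both WT pools for *Sox5* and *Matn4*, and both lie above for *Runx3*.

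*Sox9* (mm10 chromosome 11, 112782224 to 112787760) had the highest level of the 10 genes. It measured 26.5 and 25.5 TPM in the mutants against 28.6 and 23.0 TPM in WT, so the mutant values lay between the WT values. The log2 fold change was 0.02 (SE 0.15, adjusted p = 0.949), with a 95% interval from −0.37 to 0.41. The WT pools differed from each other by more than the genotypes did, with a gap of 0.30 on the log2 scale. The sign of this near-zero value changed to negative under 6 alternative settings, among them median centring of the libraries (−0.11). The paper's discussion, citing earlier studies, names *Sox9* as significantly reduced in the mesenchyme of *Shh*-/- embryos. The pools here mix mesenchyme with other tissues, so their *Sox9* values do not measure the mesenchyme alone.

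*Sox5* (chromosome 6, 143828425 to 144781977) and *Sox6* (chromosome 7, 115470872 to 116038796) encode the SOXD factors that work beside SOX9 in early cartilage and have roles in neurons as well. *Sox5* was at 7.04 and 7.19 TPM in the mutants against 9.56 and 8.24 TPM in WT. Both mutant pools lay below both WT pools, as they did for 22.7% of all tested genes, and the log2 difference of −0.28 (SE 0.16, adjusted p = 0.329) did not pass the threshold. Its 95% interval ran from −0.70 to 0.13. *Sox6* was at 5.45 and 8.25 TPM in the mutants against 6.04 and 5.22 TPM in WT. The genotypes overlapped for *Sox6*, and its log2 fold change of 0.22 (SE 0.24, adjusted p = 0.573) rested on the second *Shh*-/- pool, without which the value was −0.04. The 95% interval of *Sox6*, from −0.39 to 0.83, was the widest of the 6 tested genes.

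The ratio of *Sox9* to *Sox5* transcripts within a library was 3.76 and 3.54 in the *Shh*-/- pools and 2.99 and 2.79 in WT. The ratio of *Sox5* to *Sox6* was 1.29 and 0.872 in *Shh*-/- and 1.58 in both WT pools. Neither ratio overlapped between the genotypes, but with 2 pools a side the smallest exact permutation p (two-sided) is 0.333, so no ratio within a library was tested. The ratio of *Sox9* to *Sox5* and *Sox6* added together did overlap, at 2.12 and 1.65 in *Shh*-/- against 1.83 and 1.71 in WT.

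*Nkx3-2* (chromosome 5, 41761483 to 41764501) encodes a homeodomain factor, also called BAPX1, that acts beside SOX9 in the precursors of the axial skeleton and in foregut mesenchyme. It was at 3.67 and 3.59 TPM in the mutants against 3.77 and 2.89 TPM in WT. The genotypes overlapped, with a log2 fold change of 0.10 (SE 0.20, adjusted p = 0.765) and a 95% interval from −0.42 to 0.63. After GC and length adjustment of the libraries, the value was −0.32 (adjusted p = 0.364).

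**Figure D2:**
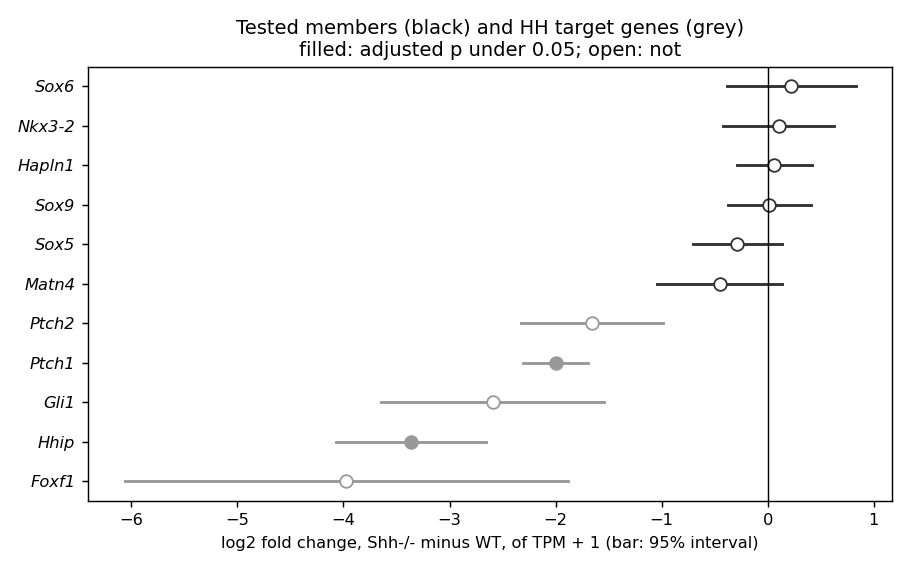
Log2 fold change (*Shh*-/- minus WT, of TPM + 1, x axis) of the 6 tested cartilage genes in black and of 5 HH target genes in grey, with bars for the 95% interval of the limma fit over 2 pools per genotype. The intervals of all 6 cartilage genes cross 0, and those of the 5 HH target genes lie below it, with *Ptch1* and *Hhip* filled because they passed the threshold.

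Close relatives of these SOX factors were taken from a list of 15 other transcription factors and cofactors of chondrogenic cells. *Sox13* (chromosome 1, 133382303 to 133424377), the third SOXD gene, was at 38.1 and 32.0 TPM in the mutants against 16.7 and 13.8 TPM in WT (log2 difference 1.15, SE 0.16, adjusted p = 0.0648). As a share of the SOXD transcripts of *Sox5*, *Sox6* and *Sox13*, *Sox13* made up 75.3 and 67.4% in *Shh*-/- and 51.8 and 50.6% in WT. Among the SOXE genes, *Sox10*, which marks neural crest and glia and was added after its values were seen, was at 34.0 and 28.6 TPM in the mutants against 18.2 and 11.7 TPM in WT (log2 difference 1.05, SE 0.24, adjusted p = 0.109). *Sox9* made up 35.8 and 40.0% of the transcripts of *Sox8*, *Sox9* and *Sox10* in *Shh*-/- and 50.8 and 55.6% in WT. Neither *Sox13* nor *Sox10* passed the threshold. For both genes the mutant pools were the higher ones without overlap, as in 38.0% of all tested genes. After GC and length adjustment the log2 differences of *Sox13* and *Sox10* were 0.67 and 0.59.

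Markers of neural crest and glia moved with *Sox10*. Of a list of 6 such genes, which includes *Sox10* itself, 5 were higher in both *Shh*-/- pools, against 38.0% of all tested genes, and the summed level of the list was 111 and 90.1 TPM in *Shh*-/- against 61.9 and 49.1 TPM in WT. None of the 6 was listed at 0 in all libraries. The part of these cells in the *Sox10* values was not tested.

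**Figure D3:**
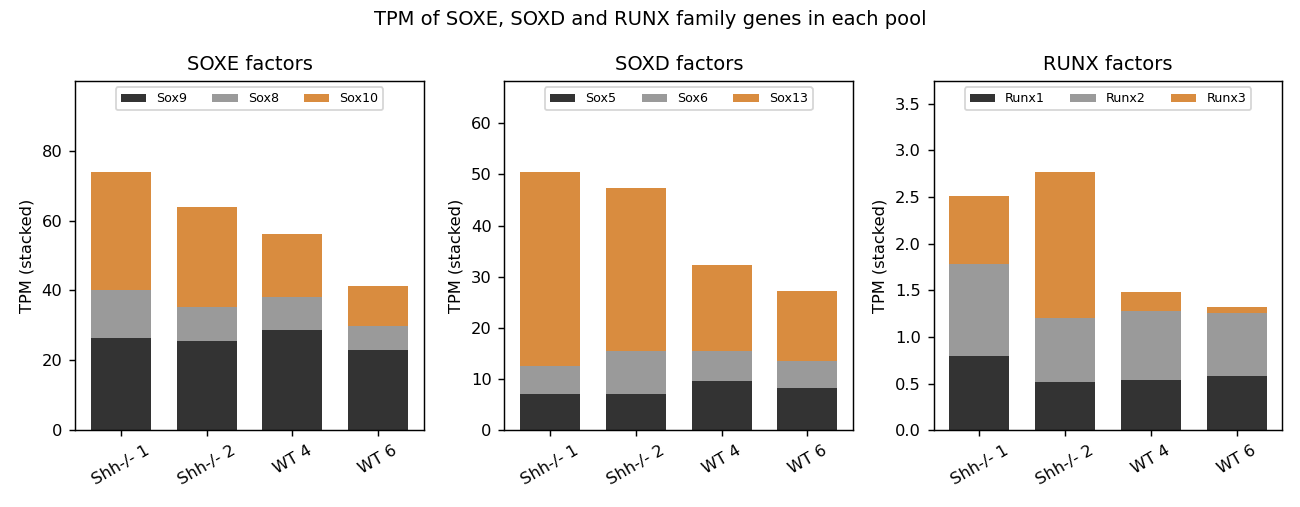
Stacked TPM of the SOXE, SOXD and RUNX genes (y axis, linear from 0) in each of the 4 pools (x axis). The dark segments of *Sox9* span 23.0 to 28.6 TPM over the 4 pools, and the orange segments of *Sox10*, *Sox13* and *Runx3* are taller in both *Shh*-/- pools than in either WT pool.

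*Hapln1* (chromosome 13, 89540636 to 89611832) encodes the link protein that fastens aggrecan or versican to hyaluronan, and it is used in cartilage and in the heart. It was at 22.2 and 21.3 TPM in the mutants against 19.4 and 22.2 TPM in WT. The genotypes overlapped, and the log2 fold change was 0.07 (SE 0.14, adjusted p = 0.783) with a 95% interval from −0.28 to 0.41, the narrowest of the 6 genes. The opposite strand within *Hapln1* holds *Gm8546*, which was at 2.83 to 3.65 TPM, and reads of the 2 genes may have been divided between them. Heart and muscle markers were higher in both mutant pools in 5 of 5 cases, where 38.0% of all tested genes were. Their sums were 130 and 188 TPM against 45.9 and 54.7 TPM in WT, and *Ttn*, 1 of the 5, was at 0.032 to 0.110 TPM. All 5 endothelial markers were also higher in both mutant pools, with sums of 248 and 285 TPM against 172 and 166 TPM. Of the tested markers, 1 muscle marker and no endothelial marker passed the threshold. The part of these cells in the *Hapln1* values was not tested.

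*Acan* (chromosome 7, 79053483 to 79115099), the aggrecan gene, was listed at 0 in the first *Shh*-/- pool, at 0.013 TPM in the second and at 0.021 TPM in both WT pools. These levels are near the limit of the tables, and no fold change was taken from them. *Matn4* (chromosome 2, 164389393 to 164405160) encodes matrilin-4, an adaptor protein of extracellular filaments. It was at 0.826 and 1.02 TPM in the mutants against 1.44 and 1.84 TPM in WT. The mutant pools were the lower ones without overlap, as in 22.7% of all tested genes. The log2 difference was −0.45 (SE 0.23, adjusted p = 0.282) with a 95% interval from −1.04 to 0.13. Among the 6 tested genes this was the value farthest from 0, and it stayed between −0.76 and −0.32 over 12 alternative settings.

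The partners of *Hapln1* and *Acan* in the hyaluronan matrix had other values. *Vcan* (chromosome 13, 89655312 to 89742509) encodes versican, the lectican of embryonic mesenchyme, and took 96.6 to 99.5% of the transcripts of the 4 lectican genes (*Vcan*, *Acan*, *Ncan* and *Bcan*) in each library. It was at 72.8 and 47.8 TPM in the mutants against 125.1 and 179.6 TPM in WT, a log2 difference of −1.33 (SE 0.27, adjusted p = 0.0962). *Hapln3* (chromosome 7, 79115102 to 79131018), a link protein gene, was at 1.26 and 1.67 TPM in the mutants against 4.31 and 3.95 TPM in WT (log2 difference −1.06, SE 0.21, adjusted p = 0.0929). *Has2* (chromosome 15, 56665627 to 56694539), which encodes the main hyaluronan synthase of the embryo, was at 14.5 and 20.1 TPM in the mutants against 29.5 and 43.3 TPM in WT (log2 difference −1.02, SE 0.25, adjusted p = 0.119). In each of these 3 genes the mutant pools were the lower ones without overlap, as in 22.7% of all tested genes, and none passed the threshold. *Ncan*, the neurocan gene and the only other lectican or link protein gene tested outside the 10, lay the other way. It was at 1.42 and 1.53 TPM in the mutants against 0.599 and 0.794 TPM in WT (log2 difference 0.55, adjusted p = 0.217). *Has3*, the other hyaluronan synthase gene tested and added after its values were seen, also lay above WT. It was at 2.15 and 1.64 TPM in the mutants against 1.34 and 1.08 TPM in WT (log2 difference 0.39, adjusted p = 0.341). Both mutant pools were higher in 38.0% of all tested genes.

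Within a library, the ratio of *Hapln1* to *Vcan* was 0.305 and 0.445 in *Shh*-/- and 0.155 and 0.124 in WT. *Hapln1* made up 93.6 and 92.0% of the link protein transcripts (*Hapln1* to *Hapln4*) in *Shh*-/- and 81.6 and 84.6% in WT. Each of these quantities is a level relative to other genes, and the pools of the genotypes did not overlap, while the level of *Hapln1* itself did overlap. In the genome, *Hapln1* and *Vcan* lie tail to tail with 43479 bases between them, and *Acan* and *Hapln3* lie tail to tail with 2 bases between their listed ends.

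**Figure D4:**
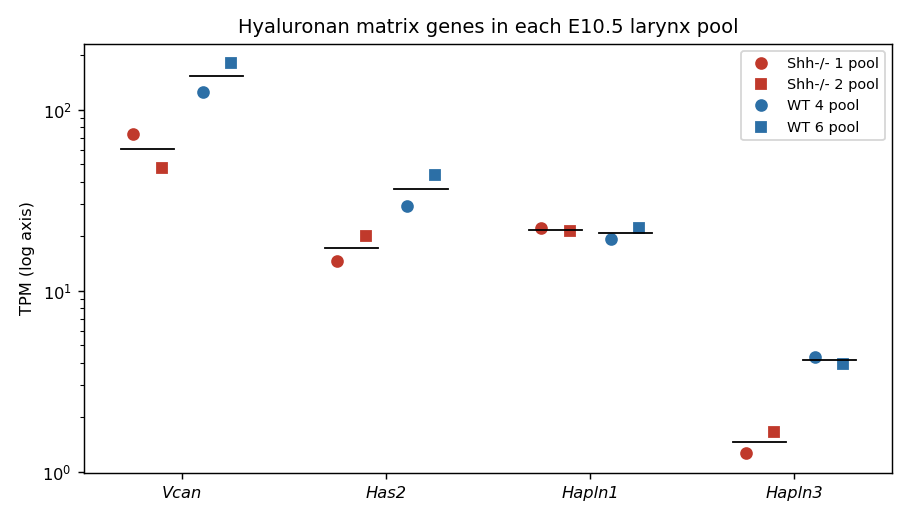
TPM (y axis, log scale) of *Vcan*, *Has2*, *Hapln1* and *Hapln3* in each pool, with *Shh*-/- pools in red, WT pools in blue and black lines at the mean of 2 pools. The genotypes overlap for *Hapln1* alone, and both *Shh*-/- pools lie below both WT pools for the other genes.

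RUNX factors bind DNA together with the shared partner CBFB. RUNX2 drives bone formation and the maturation of cartilage, RUNX1 is best known from blood and is also used in cartilage precursors, and RUNX3 is used in sensory neurons and blood cells as well as in cartilage. The 3 genes had a mean TPM under 1 over the 4 libraries and were not tested in the comparison above. *Runx1* (chromosome 16, 92601466 to 92826149) measured 0.799 and 0.514 TPM in the mutants against 0.545 and 0.582 TPM in WT. *Runx2* (chromosome 17, 44495987 to 44814797) measured 0.981 and 0.686 TPM in the mutants against 0.731 and 0.672 TPM in WT. The genotypes overlapped for both genes, and the highest value of each was that of the first *Shh*-/- pool. *Supt3*, on the opposite strand, overlaps *Runx2* and was at 21.6 to 27.7 TPM, so the low *Runx2* values may hold some of its reads.

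*Runx3* (chromosome 4, 135120652 to 135177990) measured 0.731 and 1.57 TPM in the mutants against 0.203 and 0.065 TPM in WT. Both *Shh*-/- pools lay above both WT pools, as they did for 16.3% of the genes with a mean TPM above 0 and under 1, while they lay below for 14.8%. The log2 fold change was 0.90 with a pseudocount of 1 and 2.40 with a pseudocount of 0.1. With no filter on TPM the limma fit gave it an adjusted p of 0.215 and *Runx1* and *Runx2* adjusted p values of 0.797 and 0.751, a fit in which no gene passed the threshold in limma and 5011 had an unadjusted p under 0.05. Among RUNX transcripts, *Runx3* made up 29.1 and 56.7% in *Shh*-/- and 13.7 and 4.92% in WT. The 3 genes together took 2.51 and 2.77 TPM in the mutants against 1.48 and 1.32 TPM in WT. *Cbfb*, chosen after its values were seen, was at 167 and 154 TPM in the mutants against 143.0 and 142.6 TPM in WT (log2 difference 0.17, SE 0.09, adjusted p = 0.324), which is 55.6 to 108 times the RUNX sum of the same library.

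Markers of other cells that use *Runx3* also differed. All 5 neuron markers were higher in both *Shh*-/- pools, where 38.0% of all tested genes were, with a summed level of 348 and 378 TPM against 87.2 and 63.5 TPM in WT. Of 4 sensory neuron markers, 3 were higher in both *Shh*-/- pools and *Ntrk3* overlapped, with sums of 24.9 and 35.9 TPM against 9.85 and 10.97 TPM. The 6 macrophage and blood cell markers overlapped without exception, at sums of 19.4 and 14.4 TPM in the mutants against 12.2 and 15.7 TPM in WT. None of these 15 markers was listed at 0 in all libraries, and their part in the *Runx3* values was not tested.

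The gene tables do not separate promoters. RefSeq (GRCm38.p6) gives windows from 250 bases before to 50 bases after a transcription start for 9 of the 10 genes, 17 windows in all, and none for *Sox9*. The distal windows of the RUNX genes are shown because they share a motif, and the proximal window of *Runx3* because it lacks it, as does that of *Runx1*. Sequences run 5′ to 3′ on the strand of the gene, and capitals mark the RUNX motif TGTGGT on either strand.
Runx1 distal, chr16:92826025-92826324, minus strand: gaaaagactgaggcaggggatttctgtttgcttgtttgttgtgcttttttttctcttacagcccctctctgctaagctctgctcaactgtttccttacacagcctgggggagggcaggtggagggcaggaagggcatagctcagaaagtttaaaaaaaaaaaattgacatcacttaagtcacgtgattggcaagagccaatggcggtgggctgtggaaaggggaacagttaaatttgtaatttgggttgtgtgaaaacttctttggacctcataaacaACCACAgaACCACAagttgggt
Runx2 distal, chr17:44814578-44814877, minus strand: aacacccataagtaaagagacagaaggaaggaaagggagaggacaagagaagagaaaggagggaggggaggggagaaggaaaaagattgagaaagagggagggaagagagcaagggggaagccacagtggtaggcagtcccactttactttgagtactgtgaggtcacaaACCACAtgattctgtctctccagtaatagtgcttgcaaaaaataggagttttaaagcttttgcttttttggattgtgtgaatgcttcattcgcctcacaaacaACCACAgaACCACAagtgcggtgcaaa
Runx3 distal, chr4:135120395-135120694, plus strand: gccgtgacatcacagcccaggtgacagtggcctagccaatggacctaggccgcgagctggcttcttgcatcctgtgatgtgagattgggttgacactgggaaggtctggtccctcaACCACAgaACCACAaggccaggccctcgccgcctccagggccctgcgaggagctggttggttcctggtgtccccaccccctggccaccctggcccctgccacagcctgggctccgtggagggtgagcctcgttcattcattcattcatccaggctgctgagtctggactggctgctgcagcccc
Runx3 proximal, chr4:135152295-135152594, plus strand: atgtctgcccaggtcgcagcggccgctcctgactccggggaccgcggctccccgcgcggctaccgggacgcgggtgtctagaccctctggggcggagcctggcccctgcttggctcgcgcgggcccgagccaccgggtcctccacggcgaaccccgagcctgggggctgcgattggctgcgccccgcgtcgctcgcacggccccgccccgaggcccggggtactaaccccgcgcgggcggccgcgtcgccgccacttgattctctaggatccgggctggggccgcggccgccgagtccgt

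In each distal window a pair of RUNX motifs on the same strand started 8 bases apart. This arrangement was found in 7 of 32851 RefSeq windows (0.0213%). The spacing counted was set to match these RUNX windows, and they are themselves among the 7. The share is therefore not an independent background rate. In *Runx1* they started at positions 29 and 37 after the transcription start, in *Runx2* at 24 and 32, and in *Runx3* at −134 and −126 relative to it. *Runx2* held another at −80. A single RUNX motif occurs in 16.8% of all windows, and beside the RUNX genes it was found in the *Hapln1* window and in 2 of the 6 *Sox6* windows. The *Runx3* windows differed in base composition, since the distal one had a GC content of 63.7% and an observed-to-expected CpG ratio of 0.264, and the proximal one 77.3% and 1.01.

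The SOX motif ACAAAG, searched on both strands, was found in 5 of the 17 windows, each of them a *Sox6* window, and occurs in 18.7% of all windows. The GLI motif GACCACCCA, the consensus of the HH effectors, was in none of the 17 windows and in 0.253% of all windows. These letters in a promoter window are a description and say nothing of binding.

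Genes of the same pathway outside the 10 were taken from 5 lists of 68 genes, of which 47 were tested. None passed the threshold in either direction, and 20 had an unadjusted p under 0.05 in limma, where 24.8% of all tested genes did. Of the 47, 38 had a log2 fold change above 0, as did 9895 of the 16972 genes tested, and the median was 0.34 (0.08 over all tested genes). After GC and length adjustment, 29 of the 47 were above 0 and the median was 0.15. Both *Shh*-/- pools lay above both WT pools for 30 of the 47 and below for 5, where the shares over all tested genes were 38.0% and 22.7%.

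In the list of 15 transcription factors and cofactors, 13 were above 0 in the main comparison and under each of the 4 other scalings, and 12 without the first mutant pool. *Pax1* (chromosome 2, 147361925 to 147393295), a gene of sclerotome and of pharyngeal pouch endoderm, was at 30.1 and 9.67 TPM in the mutants against 1.08 and 0.400 TPM in WT (log2 difference 3.41, SE 0.55, adjusted p = 0.0736). *Barx1* (chromosome 13, 48662998 to 48666507), a homeobox gene of foregut mesenchyme and of facial cartilage precursors, was at 18.9 and 20.5 TPM in the mutants against 8.23 and 5.15 TPM in WT (1.46, SE 0.23, adjusted p = 0.0736). Of 5 sclerotome markers, 3 were higher in both *Shh*-/- pools (38.0% of all tested genes were). The sums of this list, which shares *Pax1* and *Pax9* with the 15 factors, were 82.1 and 62.9 TPM against 32.1 and 26.7 TPM. *Uncx* was at or below 0.134 TPM in every pool. By in situ hybridization, the paper saw *Pax1* in the anterior pharyngeal pouches and reported no extension of it into the *Shh*-/- larynx. The part of pouch cells in the *Pax1* values and in these sums was not tested.

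Of 17 cartilage matrix genes, 10 were tested and their median log2 fold change was 0.35. All 10 were above 0 in the main comparison, 6 after median centring, 6 without the first mutant pool and 4 after GC and length adjustment, where the median was −0.05. *Col2a1* (chromosome 15, 97975602 to 98004695), the type II collagen gene and a direct target of SOX9, was at 249.0 and 161.0 TPM in the mutants against 136.8 and 127.3 TPM in WT (log2 difference 0.60, SE 0.22, adjusted p = 0.189), and the difference was 0.08 after GC and length adjustment, 0.29 without the first mutant pool and 0.91 without the second. The ratio of *Col2a1* to *Sox9* within a library was 9.41 and 6.31 in *Shh*-/- and 4.79 and 5.53 in WT. *Col9a2* (chromosome 4, 121039385 to 121055322), which encodes a chain of type IX collagen, was at 37.1 and 23.9 TPM in the mutants against 11.4 and 8.37 TPM in WT (1.51, SE 0.26, adjusted p = 0.0812), whereas *Col9a1* had a log2 fold change of 0.03 (adjusted p = 0.931) and overlapped. *Col9a3*, for a partner chain, had a log2 fold change of 0.78 (adjusted p = 0.277), which was 1.33 without the first mutant pool and 0.24 without the second. *Matn2*, for a matrilin, had a value of 0.53 (adjusted p = 0.271), which was 0.79 and 0.26 without these pools.

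Several genes of mature cartilage were at or near 0. *Ucma*, *Matn1* and *Snorc* were listed at 0 in every pool, *Comp* was at or below 0.109 TPM, and *Col10a1*, the collagen of hypertrophic cartilage, at or below 0.182 TPM. Others were higher, such as *Matn3* at 1.39 to 1.58 TPM, *Chad* at 0.924 to 1.12 TPM and *Ihh* at 0.328 to 1.597 TPM, and all 3 overlapped between the genotypes. Among the 16 genes of the matrix and bone lists that lay below the filter, both mutant pools were higher for 3 and lower for 5. The shares over all genes with a mean TPM above 0 and under 1 were 16.3% and 14.8%. That wider set leaves out genes at 0 in every pool, whereas the 16 include *Ucma*, *Matn1* and *Snorc*. Of the 16, *Cnmd*, *Bglap* and *Epyc* were chosen after their values were seen. *Cnmd* is the chondromodulin gene. Its mean was 1.87 ± 0.18 TPM in the mutants against 0.074 ± 0.005 TPM in WT (SD, n = 2 each), and the fit with no filter gave an adjusted p of 0.146. *Bglap*, the osteocalcin gene, was listed at 0 in both mutant pools and at 0.490 and 0.600 TPM in WT (adjusted p = 0.153 with no filter). *Epyc*, the epiphycan gene, was also listed at 0 in both mutant pools, and at 0.311 and 0.793 TPM in WT (adjusted p = 0.229 with no filter).

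Of 12 genes of hypertrophic cartilage and bone, 3 were tested. *Spp1* (chromosome 5, 104435118 to 104441050), the osteopontin gene, was at 9.31 and 7.87 TPM in the mutants against 3.34 and 1.82 TPM in WT (log2 difference 1.45, SE 0.27, adjusted p = 0.0887). *Pth1r* (chromosome 9, 110722085 to 110747145), the receptor gene for parathyroid hormone and its related protein, was at 47.9 and 42.0 TPM in the mutants against 31.7 and 28.4 TPM in WT (0.56, SE 0.13, adjusted p = 0.114), with 0.16 after GC and length adjustment. *Alpl*, the alkaline phosphatase gene, overlapped (−0.28, adjusted p = 0.407). *Sp7*, which encodes the bone factor osterix and lay below the filter, was at 0.391 and 0.265 TPM in the mutants against 0.541 and 0.606 TPM in WT. Both mutant pools were lower for *Sp7*, as in 14.8% of the genes with a mean TPM above 0 and under 1.

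Of 18 genes for the synthesis of chondroitin sulphate, the sugar chain of aggrecan and versican, and of hyaluronan, 16 were tested. Among these, 12 were above 0, with a median of 0.24 that was 0.02 after GC and length adjustment. Apart from *Has2*, described above, the largest values were those of *Chpf* (0.67, adjusted p = 0.167), *Chst12* (0.48, adjusted p = 0.193) and *Papss1* (0.41, adjusted p = 0.119). After GC and length adjustment, *Chpf*, *Chst12* and *Papss1* were at 0.25, 0.15 and 0.25, and *Chpf* was at 0.44 without the first WT pool. *Papss1*, which encodes an enzyme that makes the sulfate donor, was at 74.3 and 71.0 TPM in the mutants against 54.7 and 54.5 TPM in WT. Both mutant pools lay above both WT pools for *Papss1*, as in 38.0% of all tested genes.

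**Figure D5:**
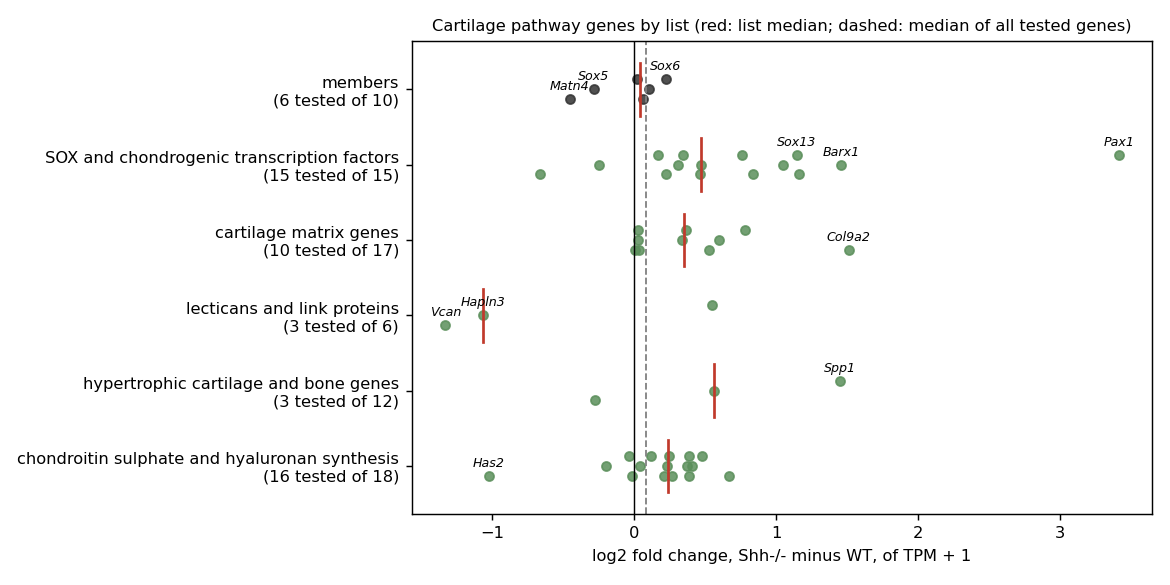
Log2 fold change (*Shh*-/- minus WT, of TPM + 1, x axis) of every tested gene in the 6 lists, with red bars at the list medians and a dashed line at the median of all tested genes. The 6 cartilage precursor genes lie between −0.45 and 0.22 around 0, and no gene in the 6 lists passed the threshold.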

How the data were processed

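RNA from 2 *Shh*-/- and 2 WT pools was made into stranded poly(A) libraries and sequenced single-end by the authors, who aligned reads to mm10 with HISAT2 2.1.0 and built gene tables with StringTie 1.3.6 (versions per the labels). The deposited coverage is the mean read depth per base, not normalized between libraries. The deposited FPKM is coverage scaled by aligned bases, and the deposited TPM is FPKM scaled to the same sum in each library. Depth was the median ratio of coverage to FPKM over single-transcript genes. No read counts were used and no counting interval is given; precision rests on the spread between 2 pools. Where nothing states that pools came from separate litters, p-values measure the spread between these pools.

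Rows of a gene ID were added up, and log2(TPM + 1) was fitted by genotype with no covariates in limma 3.58.1 (R 4.3.3, moderated variances following a trend with mean level) for genes averaging 1 TPM or more. The script was tested on simulated data. The 10 members and the lists were chosen with earlier results of these data known. Named genes were the 10 members, listed genes past the threshold, the 4 tested genes with the largest absolute fold change in each list, and *Shh* with HH targets; a gene that this rule names is not reported here. The alternatives are given in the closing section. Promoter windows are from RefSeq GRCm38.p6, and GC content and length from GENCODE M21. Strand handling in the gene tables was not given in the sources used here.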

Additional observations from a re-analysis of the deposited data

How the results depend on the processing

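No member and no other pathway gene passed the threshold in the main comparison or under any of the 13 alternatives (pseudocount 0.1, no filter, a filter at 5 TPM, quantile normalization, median centring, FPKM, GC content and length correction, eBayes without trend or with robust variance, and each pool left out). Calls over the whole table were 53 higher and 16 lower with a pseudocount of 0.1, 63 and 19 with a filter at 5 TPM, 0 and 0 with no filter (5011 genes at an unadjusted p under 0.05 in limma), and 0 to 4 and 0 to 12 with 1 pool left out, against 95 and 28. Calls for *Ptch1* and *Hhip* were lost with no filter (adjusted p = 0.146 for both) and with any pool left out, and that for *Hhip* also with a pseudocount of 0.1 (adjusted p = 0.0598).

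Median centring shifted fold changes by 0.13 on the log2 scale. *Sox9*, *Hapln1* and *Nkx3-2*, with values near 0, changed sign with the scaling, and these 3 as well as *Sox6*, *Runx1* and *Runx2* did so with 1 pool left out. *Sox9* (main value 0.02) was at −0.11 after quantile normalization, −0.11 after median centring, −0.014 with FPKM, −0.17 after GC content and length correction, and between −0.13 and 0.17 with 1 pool left out. *Hapln1* (0.07) was at −0.061 after quantile normalization, −0.063 after median centring, and between −0.030 and 0.16 with 1 pool left out. *Nkx3-2* (0.10) was at −0.013, −0.024 and −0.32 after quantile normalization, median centring and GC content and length correction, and between −0.044 and 0.25 with 1 pool left out. *Sox6* (0.22) was between −0.037 and 0.48 with 1 pool left out, and stayed above 0 under every scaling. *Runx1* (0.08) and *Runx2* (0.10), which were not tested, were at −0.046 and −0.013 without mutant pool 1. *Sox5* and *Matn4* stayed below 0 under every alternative in which they were tested. No paired analysis was possible because the labels give the genotypes no replicate number in common. Values under 1 TPM rest on the fewest reads, above all in mutant pool 1.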
